A study of Caenorhabditis elegans with 2 samples.

Results

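Chromatin immunoprecipitation followed by sequencing (ChIP-seq) of the nuclear hormone receptor NHR-28 of Caenorhabditis elegans was examined at the genes of fatty acid and lipid metabolism. Members were the protein-coding genes whose symbol is fat-, acs-, elo-, acdh-, ech-, acox-, lipl-, lbp-, cpt-, hacd- or dgat- followed by a number, together with pod-2, fasn-1, maoc-1, dhs-28, daf-22, kat-1, atgl-1, sbp-1, mdt-15 and abhd-5.2. This gave 103 of the 19973 nuclear protein-coding genes of the annotation. The samples were whole L1 larvae (the first larval stage) of mixed sex from strain OP317, whose genotype reads unc-119(ed3) III with the integrated transgene wgIs317. The descriptions name the target as eGFP-nhr-28, and the structure of wgIs317 is not given in the labels. Both samples, labelled as biological replicates 1 and 2, form a single group, so no condition could be compared. The labels name 1 strain as the source of both, and its age is given as unknown. The antibody label reads nhr-28, and whether the tag or the receptor was bound by the antibody is not stated there. The promoter that drives the tagged receptor is not given in the sources used here, and nothing separates the tissues of the animal, so a region bound in a few cells and a region bound weakly in many cannot be told apart.

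Fatty acids are built by acetyl-CoA carboxylase and fatty acid synthase, lengthened by elongases and given double bonds by desaturases. Acyl-CoA synthetases activate them for storage as triglyceride or for breakdown, which proceeds by beta-oxidation in mitochondria after transfer to carnitine, or in peroxisomes. In nematodes the peroxisomal route also shortens the side chains of ascarosides, the pheromones of the worm, and several nuclear hormone receptors are known to control fat genes in the intestine, the main fat depot.

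The deposited lists hold 30000 candidate regions each, peaks together with background, for replicate 1, for replicate 2 and for both pooled. The signal of a region is the authors' own value and has the scale of its list, so positions are compared below by rank, where rank 1 is the highest signal. A region was counted for a gene when its summit lay in the gene or within 3 kb of the gene's start, and the best region of a gene is the one with the lowest rank number. In the pooled list, signal ran from 12.5 to 1362, with 32.1 at rank 1000. The first 22 ranks are mitochondrial, and the highest nuclear region has rank 23 and signal 126. Besides these lists there is a thresholded list of 159 peaks, which passed the authors' criterion of reproducibility between replicates. The depth of the libraries is unknown. The locus of nhr-28 itself, on X, held no region in any of the 3 lists, and the best region of unc-119 had rank 4710 in the pooled list.

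Candidate regions, which include background, lay at most lipid genes, as at most genes, but high-ranking and reproducible ones at few. In the pooled list 88 of the 103 members had a region (85.4%, exact 95% interval 77.1 to 91.6), against 74.9% of all nuclear protein-coding genes. In the list of replicate 1 the count was 93 (90.3%), against 79.7% of all genes, and in that of replicate 2 it was 89 (86.4%), against 79.5%. Both replicate lists held a region for 82 members (79.6%, 70.5 to 86.9), against 68.3% of all genes. All 3 lists held one for 79 members (76.7%), against 63.2% of all genes. The genes acdh-3, acs-18 and lipl-1 had no region in any of them, as did 8.56% of all genes.

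Among the 1000 highest regions of the pooled list, 14 members were reached (13.6%, exact 95% interval 7.63 to 21.8), against 7.05% of all genes. The same cut-off gave 14 members in replicate 1 (13.6%, against 7.05%) and 12 members in replicate 2 (11.7%, against 6.54%). Only 4 members were within it in both replicates (3.88%, 1.07 to 9.65), against 1.94% of all genes, an interval that includes the share of all genes. These were abhd-5.2, sbp-1, acs-6 and cpt-2. A thresholded peak was present at 3 members, abhd-5.2, sbp-1 and acs-6 (2.91%, 0.605 to 8.28), against 1.12% of all genes. Of the genes named here, abhd-5.2 and sbp-1 belong to the 10 members written out singly, and acs-6 and cpt-2 were taken by symbol prefix. Members taken by prefix alone therefore had lower shares on both of these measures than the whole group. For thresholded peaks, where acs-6 alone remains, their share was no higher than the 1.12% of all genes. For the 1000 highest of both replicates it was close to the 1.94% of all genes. No test was made of the differences from all genes, since the members were chosen with results known. Members are somewhat longer than other genes, with a median length of 2523 bp against 2027 bp, and their windows held 31.98 regions per 100 kb against 29.5 over the windows of all genes. The part of length and region density in these shares was not tested.

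**Figure D1:**
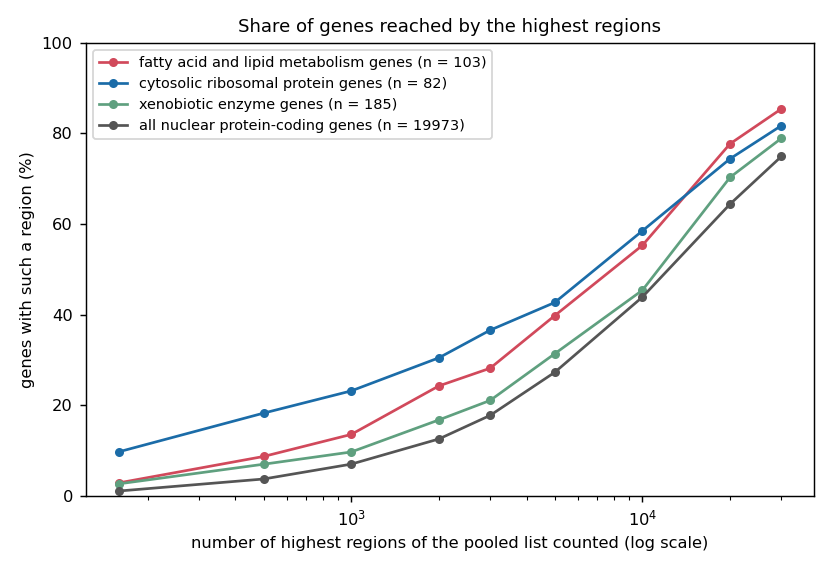
Share of genes (vertical axis, percent) with a region among the highest regions of the pooled list, by the number of regions counted (horizontal axis, log scale), for lipid genes, ribosomal protein genes, xenobiotic enzyme genes and all nuclear protein-coding genes. At 1000 regions the shares are 13.6%, 23.2%, 9.73% and 7.05%, and at 30000 regions they are 85.4%, 81.7%, 78.9% and 74.9%.

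The curve of lipid genes ran above that of all genes at every number of regions counted, by less than that of ribosomal protein genes up to 10000 regions. With 3000 regions, 28.2% of lipid genes were reached, 36.6% of the 82 genes of cytosolic ribosomal proteins, 21.1% of the 185 cyp, ugt and gst genes of xenobiotic metabolism and 17.8% of all genes. Thresholded peaks lay at 8 ribosomal protein genes (9.76%) and 5 xenobiotic enzyme genes (2.70%), so the lipid genes stand close to the latter on this measure. These shares are given as counts, and the differences between the gene groups were not tested.

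Of all lipid genes, abhd-5.2 had the highest region (V, 4844653 to 4844982). The gene (4844685 to 4847025, plus strand) encodes an alpha/beta hydrolase domain protein related to the coactivator of adipose triglyceride lipase in mammals. The region had signal 67.2 and rank 71 in the pooled list, signal 43.0 and rank 63 in replicate 1, and signal 20.3 and rank 484 in replicate 2. It was thus among the leading nuclear regions of replicate 1 and lower in replicate 2, though within the 1000 highest of both. The summit lay in the coding sequence, 133 bp downstream of the gene start, at 130 bp in replicate 1 and 85 bp in replicate 2. The related gene abhd-5.1 starts 2835 bp away, so the same region falls in the window of both abhd-5 genes. The 201 bases around the pooled summit are shown because this is the strongest region of the group and the only one of the 3 thresholded peaks inside a gene. Here and below, bases are read on the plus strand of ce11 from the RefSeq sequence of WBcel235, and capitals mark matches to GAGAGA or to AGGTCA, the half-site of many nuclear hormone receptors, on either strand.

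abhd-5.2 (V, 4844718 to 4844918): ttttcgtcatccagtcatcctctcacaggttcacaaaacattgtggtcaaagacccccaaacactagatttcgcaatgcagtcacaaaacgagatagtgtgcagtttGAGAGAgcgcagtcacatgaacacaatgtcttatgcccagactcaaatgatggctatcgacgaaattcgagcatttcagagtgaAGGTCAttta

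The regulator sbp-1 encodes the worm's sterol regulatory element binding protein, a transcription factor that activates genes of fatty acid synthesis and desaturation. Its best region, on III from 11444845 to 11445174, had signal 54.9 and rank 109 in the pooled list, signal 32.1 and rank 135 in replicate 1, and signal 31.4 and rank 62 in replicate 2. Of the 103 members, sbp-1 alone was within the 159 highest regions of both replicates. The summit lay 2444 bp upstream of the start (the gene spans 11428367 to 11442566 on the minus strand), in intergenic sequence. No other protein-coding start was nearer. A second pooled region 1604 bp upstream had signal 18.6 and rank 11686. The other regulator, mdt-15, encodes a Mediator subunit that works with SBP-1 and with nuclear hormone receptors. Its best region had rank 7581 in the pooled list, 70 bp upstream of the start. In replicate 1 its best region had rank 5758, in an intron, and in replicate 2 rank 297, in the 3' UTR with the summit 5141 bp from the start. These are different places, so the high rank of replicate 2 was not repeated.

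The synthetase gene acs-6, of the family that activates fatty acids to acyl-CoA, had the remaining thresholded peak (II, 7060868 to 7061197), whose summit was 997 bp upstream of the gene (7062030 to 7064846, plus strand). Signal was 49.6 and rank 154 in the pooled list. The overlapping regions had signal 27.1 and rank 261 in replicate 1, and signal 22.2 and rank 288 in replicate 2, so this position ranked alike in both. In each replicate another region further upstream ranked slightly higher. That of replicate 1 lay 2480 bp upstream with signal 27.1 and rank 259, and that of replicate 2 lay 1976 bp upstream with signal 22.7 and rank 249. In the pooled list the other upstream regions were lower, with ranks 1572 and 7290, and the one at 997 bp was overlapped by a region within the 1000 highest of each replicate.

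The sequences at the sbp-1 and acs-6 summits are shown as the other thresholded peaks of the group, and that of cpt-2 as the remaining region high in both replicates.

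sbp-1 (III, 11444910 to 11445110): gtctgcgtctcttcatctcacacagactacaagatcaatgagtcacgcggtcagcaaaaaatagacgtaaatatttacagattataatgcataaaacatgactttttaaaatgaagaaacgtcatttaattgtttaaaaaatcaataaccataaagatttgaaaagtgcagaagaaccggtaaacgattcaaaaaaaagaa
acs-6 (II, 7060933 to 7061133): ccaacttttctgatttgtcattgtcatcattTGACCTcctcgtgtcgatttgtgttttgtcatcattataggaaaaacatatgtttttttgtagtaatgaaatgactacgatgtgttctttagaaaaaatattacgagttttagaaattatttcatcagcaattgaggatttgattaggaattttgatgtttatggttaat
cpt-2 (IV, 11179305 to 11179505): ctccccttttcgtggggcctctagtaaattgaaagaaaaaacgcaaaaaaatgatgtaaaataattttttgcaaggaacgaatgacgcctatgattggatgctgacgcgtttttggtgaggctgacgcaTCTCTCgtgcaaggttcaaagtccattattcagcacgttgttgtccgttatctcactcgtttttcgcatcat

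The window of abhd-5.2 holds 1 match to GAGAGA and 1 to AGGTCA, that of acs-6 holds 1 match to AGGTCA on the minus strand, that of cpt-2 holds 1 match to GAGAGA on the minus strand, and that of sbp-1 holds neither. GC content was 43.3% at abhd-5.2, 41.8% at cpt-2, 30.8% at sbp-1 and 28.9% at acs-6. Over all 214 pooled regions of lipid genes, windows of 200 bp held GAGAGA in 26 cases (12.1%, exact 95% interval 8.09 to 17.3), against 9.52% of all 29975 nuclear regions. AGGTCA was found in 14 (6.54%, 3.62 to 10.7), against 3.96%. Among the 1000 highest regions, 3 of 14 lipid gene regions held GAGAGA (21.4%), against 23.1% of all nuclear regions of that height, and 2 of 14 held AGGTCA, against 3.79%. For both motifs the interval of the lipid gene regions includes the share of all regions at this window. With windows of 400 bp it does not for GAGAGA. There the motif was found in 24.3% of lipid gene regions (18.7 to 30.6) against 17.9% of all nuclear regions. With windows of 100 bp the GAGAGA share was 7.48% (4.33 to 11.9), an interval that includes the 4.86% of all nuclear regions. The motif was known from earlier results of these data, so these intervals describe the shares and are no test. With 14 regions the interval of AGGTCA among the highest (1.78 to 42.8) is wide and includes the 3.79% of all nuclear regions of that height. A match describes letters only.

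**Figure D2:**
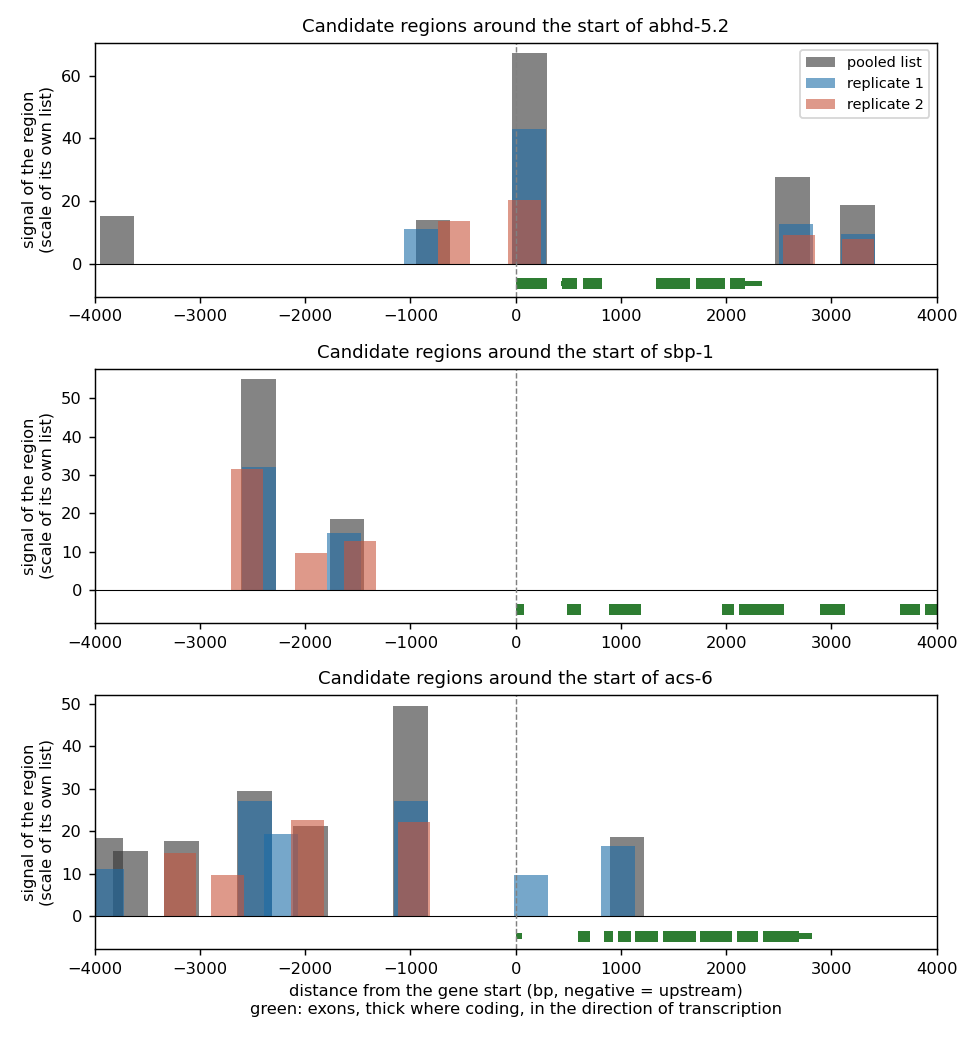
Candidate regions within 4 kb of the starts of abhd-5.2, sbp-1 and acs-6 (horizontal axis, bp from the start, negative upstream; green blocks are exons) with their signal (vertical axis, each list on its own scale). Bars are regions of the pooled list, replicate 1 and replicate 2, and each thresholded peak (133 bp downstream, 2444 bp upstream and 997 bp upstream) is overlapped by a region of both replicates.

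The carnitine transferases move fatty acids into mitochondria. Of the 6 cpt genes, all had a pooled region, and 2 of them were within the 1000 highest. Over all genes these shares were 74.9% and 7.05%. The region of cpt-2 (IV, 11179240 to 11179569) had its summit 240 bp upstream of the start (gene 11179645 to 11183008, plus strand), with signal 44.7 and rank 218 in the pooled list, signal 23.2 and rank 603 in replicate 1, and signal 21.8 and rank 321 in replicate 2. Its summit moved by little, to 243 bp and 262 bp upstream in the replicates, and of the 4 lipid genes high in both replicates it was the one with a region within 500 bp upstream. At cpt-1, the pooled list had regions 2574 bp upstream (signal 36.6, rank 512) and 128 bp upstream (signal 29.8, rank 1509). Replicate 1 favoured the proximal place, with rank 503 at 174 bp upstream and rank 8406 at 2541 bp. In replicate 2 the distal place had rank 1075, and no region overlapped the proximal one. With 7 pooled regions over 8209 bp of gene, cpt-1 had more than any other member, of which 5 lay in the gene.

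Roles were assigned by symbol, whole families together, so they do not give the compartment of each protein. Of the 25 members placed under mitochondrial beta-oxidation (acdh, ech, hacd and kat-1), 17 had a pooled region and 4 were within the 1000 highest. Over all genes these shares were 74.9% and 7.05%. None of the 4 was within the 1000 highest of both replicates. The region of ech-1.2, a gene of the mitochondrial trifunctional enzyme on I, lay in an intron 208 bp from the start (6210782 to 6211111) with signal 46.4 and rank 189. Replicate 1 held it at rank 107 with signal 34.3, whereas the best overlapping region of replicate 2 had rank 9477 with signal 10.6. The region of ech-5, an enoyl-CoA hydratase gene on IV (796592 to 796921), behaved likewise, with pooled signal 44.6 and rank 220, rank 221 in replicate 1 and rank 3810 in replicate 2. Its summit lay 266 bp upstream of ech-5 but 186 bp from the start of F56B3.11. The ketoacyl-CoA thiolase gene kat-1 had a region of signal 37.1 and rank 483 (II, 7072696 to 7073025), 953 bp upstream and 446 bp from the start of kars-1. Its overlapping regions had ranks 3041 and 15151 in replicates 1 and 2, so the pooled rank was far above either. The acyl-CoA dehydrogenase gene acdh-4 had a region of rank 736, 454 bp from the start of F57B10.8 and inside that gene, with ranks 963 and 10068 in the replicates. The only hacd gene, hacd-1, had a region in replicate 2 alone, at rank 12995.

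Peroxisomal oxidation, also assigned by symbol, had 10 members, the acox genes of acyl-CoA oxidases with maoc-1, dhs-28 and daf-22, which act after them. A pooled region was present at 9 of these, and 1 was within the 1000 highest, against 74.9% and 7.05% of all genes. This was acox-1.6, whose region had rank 514 and signal 36.5 (X, 15841131 to 15841460). That summit lay 2750 bp upstream of acox-1.6 and 276 bp from the start of serp-1.1, and overlapping regions ranked 4552 in replicate 1 and 577 in replicate 2. The hydroxyacyl-CoA dehydrogenase gene dhs-28 had its best region at rank 3050 (signal 26.0), and the thiolase gene daf-22 at rank 6273 (signal 22.1), downstream of the gene. The enoyl-CoA hydratase gene maoc-1 had no pooled region, and its best region in replicate 1, at rank 16233, had no counterpart in replicate 2. Of the peroxisomal genes, acox-3 differed most between replicates, as described below.

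Synthesis and elongation genes did not reach the highest regions in both replicates either. For pod-2, the acetyl-CoA carboxylase gene, the best pooled region had signal 31.7 and rank 1068 and lay 2511 bp upstream, inside W09B6.4. The overlapping region of replicate 1 was at rank 587, and replicate 2 had none that overlapped. For fasn-1, the fatty acid synthase gene, the best pooled region had signal 29.7 and rank 1544, 2906 bp upstream and 485 bp from the start of F32H2.8. Regions overlapping it were at ranks 20292 and 454 in replicates 1 and 2, so the synthase and the carboxylase were favoured by different replicates. Of the 9 elongase genes, 8 had a pooled region, as did 74.9% of all genes. The region of elo-2 was highest, with signal 32.2 and rank 969, 1749 bp upstream of elo-2 and 1197 bp from the start of F11E6.4. Overlapping regions were at ranks 28586 and 1380 in replicates 1 and 2.

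The 7 desaturases, which introduce double bonds into fatty acids, all had a region in each of the 3 lists, as did 63.2% of all genes. None of the 7 was within the 1000 highest of any list, a count that 7 genes cannot set apart from the 7.05% of all genes. Their pooled ranks ran from 4318 for fat-5 to 15361 for fat-1. The genes that make monounsaturated fatty acids, fat-5, fat-6 and fat-7, are known targets of other nuclear hormone receptors. The best region of fat-5 had signal 24.1 in the pooled list, 11.5 in replicate 1 (rank 14469) and 12.8 in replicate 2 (rank 4686), each about 1 kb upstream. That of fat-6 had rank 6347 and lay downstream of the gene, 2179 bp from the start. The best region of replicate 2 was at the same place with rank 2368, while that of replicate 1, at rank 13337, lay 2864 bp from the start, and the replicate 1 region overlapping the pooled one had rank 28451. That of fat-7 had signal 20.9 and rank 7766 and also lay downstream of the gene, at rank 6567 in replicate 2. In replicate 1 no region overlapped it, and the best region of fat-7 lay 2989 bp upstream at rank 24528. By best rank all 3 genes were higher in replicate 2, and of the 3 only fat-5 had its best region at 1 place in every list.

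Acyl-CoA synthetases are the largest family of the group, with 22 genes. A pooled region was present at 19, and 5 were within the 3000 highest, where the shares of all genes were 74.9% and 17.8%. With genes lacking a region placed last, the median best rank of the 22 acs genes was 11100.5. Over all 103 lipid genes it was 7766, and over all nuclear protein-coding genes it was 12220. Besides acs-6, acs-2, a mitochondrial synthetase gene induced by fasting, was within the 1000 highest, with rank 891 and signal 32.8. That region lay past the end of acs-2, 277 bp from the start of lsm-5. The overlapping regions were at ranks 243 and 7887 in replicates 1 and 2. Replicate 2 had its best region 301 bp upstream of acs-2, at rank 1675, and the nearest upstream region of replicate 1 lay 804 bp away, at rank 11823.

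Lipid binding and lipolysis completed the group. All 9 lbp genes, which encode fatty acid binding proteins, and 74.9% of all genes had a pooled region. That of lbp-4 had signal 39.2 and rank 371, 2466 bp upstream of its start, with ranks 1205 and 648 in the replicates. That of lbp-9 had signal 38.1 and rank 430, and lay 182 bp from the start of the nuclear hormone receptor gene nhr-86 and 1417 bp upstream of lbp-9, with ranks 3755 and 734. Of the 8 lipl genes of lysosomal-type lipases, 6 had a pooled region and none was within the 1000 highest. Over all genes these shares were 74.9% and 7.05%. The best of the lipl genes was lipl-7 at rank 1462, with overlapping ranks 1113 and 14693. The triglyceride lipase gene atgl-1, the partner of the abhd-5 proteins, had a best pooled rank of 3276 (signal 25.6, 1451 bp upstream), with overlapping ranks of 12286 and 19040. The acyltransferase gene dgat-2 had a best pooled rank of 4947 with signal 23.4. Among the genes of storage and lipolysis, the high region at abhd-5.2 was thus not accompanied by one at atgl-1, a comparison of ranks in the same list.

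**Figure D3:**
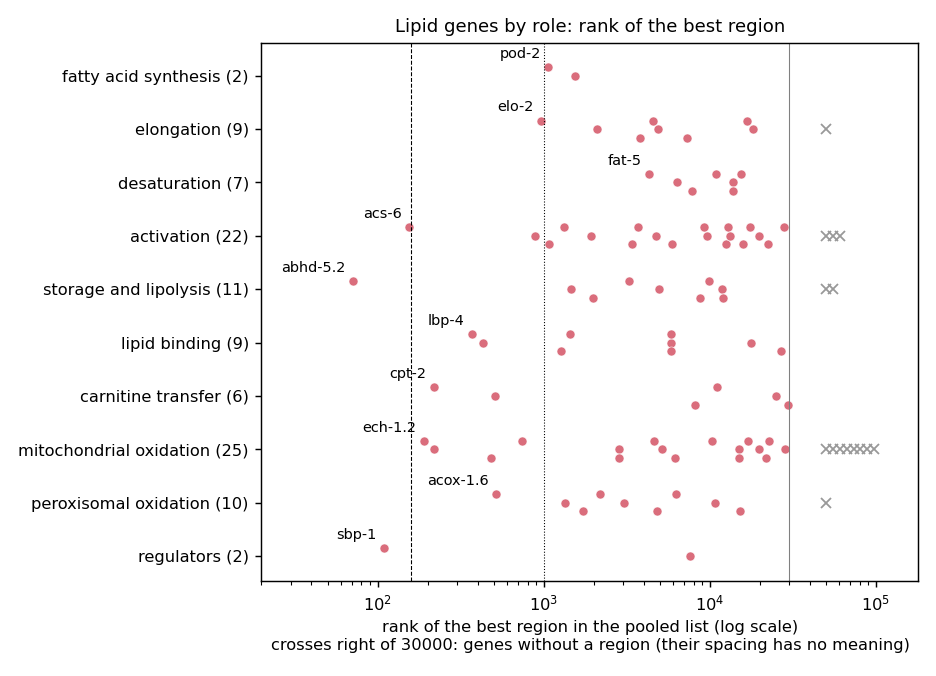
Rank of the best pooled region (horizontal axis, log scale) of each of the 103 lipid genes, by role (rows, number of genes in brackets), with the highest member of each role named; dashed and dotted lines mark ranks 159 and 1000, and crosses are genes without a region. Members within the 159 highest are abhd-5.2, sbp-1 and acs-6, and no desaturase lies left of rank 4318.

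Regions were shared with neighbouring genes throughout. Of the 214 pooled regions, 15 fell in the windows of more than 1 member, mostly tandem family members such as acdh-7 and acdh-10 on X or fat-3 and fat-4 on IV, so those members do not give separate evidence. Of all 214, 131 (61.2%) also lay in the window of a gene outside the group. The nearest start was that of a member for 144 (67.3%). Among the 14 members within the 1000 highest pooled regions, 7 had their own start nearest, namely abhd-5.2, sbp-1, acs-6, ech-1.2, cpt-2, lbp-4 and cpt-1. For the other 7 another gene started nearer. Of the 1409 genes reached by the 1000 highest regions, 53.7% had their own start nearest. When each region was given only to the gene with the nearest start, 7 members stayed within the 1000 highest of the pooled list, against 3.62% of all genes, and 4 within those of both replicates, against 0.761%.

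Summits lay mainly upstream of the genes. Of 230 pairs of a lipid gene and a pooled region, 131 (57.0%) were upstream, 58 (25.2%) in introns, 12 (5.22%) in coding exons, 6 (2.61%) in 3' UTRs and 23 (10%) downstream of the gene. Over all nuclear protein-coding genes the shares were 46.1% upstream, 28.7% intronic, 6.53% in coding exons, 3.93% in 3' UTRs and 13.5% downstream. Within 500 bp upstream of the start lay 12.6% of the lipid gene pairs and 10.5% of all pairs. Among the 1000 highest regions, 11 of 14 lipid gene pairs were upstream (78.6%), against 62.9% of all pairs, but only 2 of the 14, at cpt-2 and ech-5, lay within 500 bp upstream (14.3%), against 24.3% of all pairs. Median GC content of the 200 bp windows was 30.2% in regions of lipid genes and 30% in all nuclear regions. On X lay 9.71% of the lipid genes and 13.7% of all genes.

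**Figure D4:**
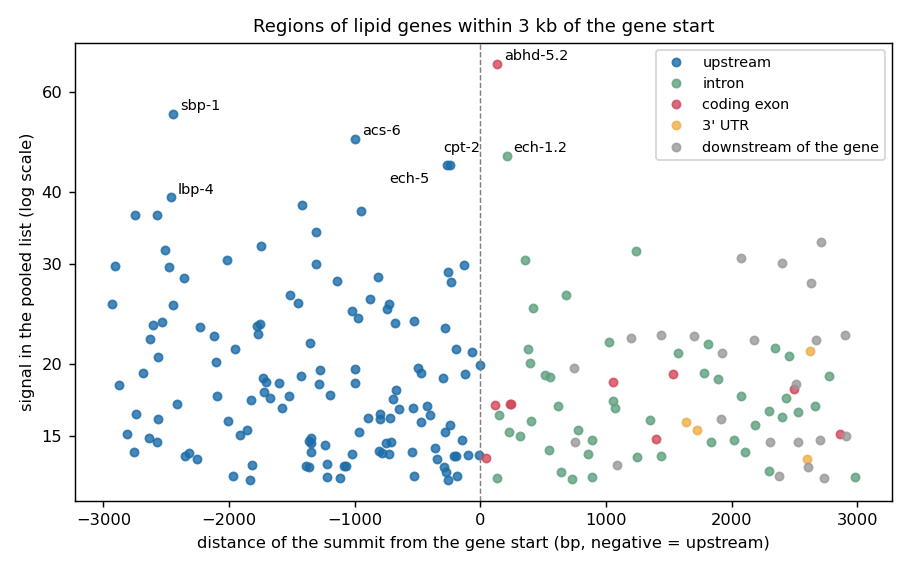
Signal in the pooled list (vertical axis, log scale) of the regions of lipid genes against the distance of the summit from the gene start (horizontal axis, bp, negative upstream), coloured by position in the gene. The highest regions, at abhd-5.2 (67.2), sbp-1 (54.9) and acs-6 (49.6), lie at 133 bp downstream, 2444 bp upstream and 997 bp upstream, with no common distance.

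The replicates ranked the lipid genes differently. Over the 82 members with a region in both lists, Spearman's rank correlation between the best ranks was 0.184, and over the 13651 genes with both it was 0.235, values that describe genes sharing a library and neighbouring windows. Of the 14 members within the 1000 highest of replicate 1, 28.6% were so in replicate 2, and of the 12 of replicate 2, 33.3% were so in replicate 1. Over all genes the shares were 27.5% and 29.6%. The widest gaps among members high in at least 1 replicate were at acox-3, with ranks 24885 and 895 in replicates 1 and 2, at elo-6, with ranks 598 and 21562, and at fasn-1, with best ranks 15548 and 454. The gaps thus went in either direction. Of the members with a region in a single replicate list, 11 had it in replicate 1 and 7 in replicate 2. The highest of these was acdh-13, at rank 594 in replicate 1 and absent from replicate 2, named here after its value was seen.

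**Figure D5:**
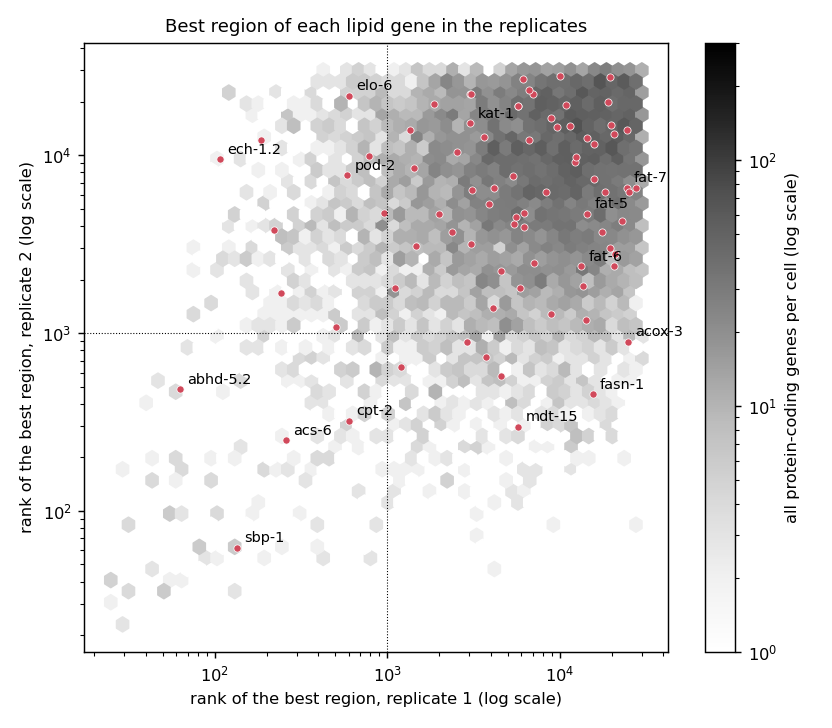
Rank of the best region of each lipid gene in replicate 1 (horizontal axis) and replicate 2 (vertical axis), both on log scales, over the density of all protein-coding genes (grey). Only abhd-5.2, sbp-1, acs-6 and cpt-2 lie below rank 1000 (dotted lines) on both axes, while acox-3, fasn-1 and elo-6 lie far off the diagonal.

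Position by position, the pooled regions of lipid genes were found again about as often as others. At least 1 bp of overlap with a region of both replicates was seen for 85 of 214 (39.7%, exact 95% interval 33.1 to 46.6), against 34.7% of all nuclear regions. Of the 14 lipid gene regions among the 1000 highest, all overlapped a region of both replicates, against 93.1% of the nuclear regions of that height. The pooled list is made from the same reads as the replicate lists, so this overlap is no independent repeat.

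Other genes of lipid metabolism outside the symbol rule were taken from 8 written lists, in which 120 of 122 symbols were found. A pooled region was present at 100 of them (83.3%, against 74.9% of all genes). Within the 1000 highest were 15 (12.5%, against 7.05%), and 3 had a thresholded peak in their window, against 1.12% of all genes. The best was plin-1, the gene of the worm's perilipin, a coat protein of lipid droplets. Its region on I from 7056841 to 7057170 lay 186 bp upstream, with signal 70.6 and rank 64 in the pooled list and ranks 67 and 93 in replicates 1 and 2. In the pooled list this was above each of the 103 members, whereas abhd-5.2 ranked above it in replicate 1 and sbp-1 in replicate 2. The second, abhd-5.1, shares the peak of abhd-5.2. The last was dld-1, the gene of dihydrolipoamide dehydrogenase, a shared subunit of ketoacid dehydrogenase complexes, with signal 62.8 and rank 82, 306 bp upstream (IV, 14464046 to 14464375), and ranks 181 and 75. Both plin-1 and dld-1 were high in each replicate.

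The counts of the single lists stand beside the 7.05% of all genes within the 1000 highest. Of the 8 lipid droplet and lipolysis genes found, 3 were within it (37.5%), among them abhd-5.1 through the peak of abhd-5.2. Another was rab-18 at rank 681, 42 bp upstream, with overlapping ranks 1219 and 3770 in replicates 1 and 2. Of the 20 regulators, 5 were within the 1000 highest (25%), namely nhr-10 (rank 168), hlh-11 (rank 413), daf-16 (rank 720), mxl-3 (rank 954) and aak-2 (rank 955). The region of nhr-10, a nuclear hormone receptor gene of the propionate response, lay 1207 bp upstream and had ranks 1767 and 109 in the replicates. Overlapping regions in replicates 1 and 2 had ranks 2840 and 741 at hlh-11, 718 and 8470 at daf-16, 6080 and 3556 at mxl-3, and 1901 and 3295 at aak-2, so none of the 5 pooled regions was within the 1000 highest of both. The best regions of aak-2 in the replicates, at ranks 628 and 934, did not overlap its pooled one. By best rank in each replicate, the measure used above for the members, aak-2 was thus within the 1000 highest of both. So was the regulator nhr-66, with ranks 411 and 914 and pooled rank 1073, although no region of replicate 2 overlapped its pooled one. Of all genes 1.94% met that measure. The daf-16 region lay in the 3' UTR, 25839 bp from the start, and that of aak-2 was nearer to the start of got-1.2. Of the 30 genes of phospholipid and acylglycerol synthesis, 5 were (16.7%): acl-4 (rank 275), acl-11 (rank 445), acl-6 (rank 519), acl-3 (rank 920) and sams-1 (rank 943). Overlapping ranks in replicates 1 and 2 were 1447 and 243 at acl-4, 765 and 12082 at acl-11, and 389 and 4019 at acl-6. They were 2953 and 6397 at acl-3, and 4976 and 3397 at sams-1, so none of the 5 regions was within the 1000 highest of both. Also within the pooled 1000 highest was dsc-4, the gene of the microsomal triglyceride transfer protein (rank 692, overlapping ranks 875 and 9908). None of the 17 sphingolipid genes, 18 peroxisome genes or 7 propionate genes was within it. Lists of this size cannot be set apart from the 7.05% of all genes by a count of 0.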

How the data were processed

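Both samples are ChIP-seq libraries of the eGFP-tagged receptor, deposited as narrowPeak lists. A file listing deposited with each sample says that candidate regions were called from the alignment of 1 replicate with a control, or of both replicates pooled with it, in ce11, and that the thresholded list comes from those 3. The signal of each region is the authors' value, as deposited, on the scale of its list. The sources used here do not give the aligner, the caller or the thresholds. Depth is unknown, since no counts were used. Exact (Clopper-Pearson) 95% intervals cover counting error over genes or regions only and ignore that neighbours share regions.

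Regions were ranked by signal within a list and assigned to nuclear protein-coding genes of Ensembl release 115 (WBcel235, the assembly of ce11; no region passed a chromosome end). Coordinates are 1-based. Ranking, assignment and overlap were tested on simulated regions (Python 3.11.15, scipy 1.17.1). Members and lists were chosen with earlier results of these data known. With 1 group there is nothing to compare between conditions, so no p-value is given. Named genes were those with a thresholded peak or within the 1000 highest of the pooled list or of both replicates, the highest of each family, the singly listed members, fat-5, fat-6 and fat-7, the 3 widest replicate gaps, those without a region, and the other lipid genes with a thresholded peak or within the 1000 highest; further genes are named only to describe a count, a shared region or a range. Alternatives were other distances, nearest starts, numbers of highest regions, overlaps, motif windows and each replicate alone. The ce10 lists were not used.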

Additional observations from a re-analysis of the deposited data

How the results depend on the processing

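Counts of members with a pooled region stayed within 1.5 times of 88 under every alternative tried (64 to 98, where 46.2% to 84.2% of all genes were counted). The count in both replicate lists fell from 82 to 37 with summits within 1 kb of the start only, where 29.7% of all genes were counted. The count within the 1000 highest of the pooled list (14) was 6 with the gene body and 1 kb, 6 with 1 kb alone, 7 with nearest starts, 9 in the 500 highest and 25 in the 2000 highest, against 4.15%, 3.09%, 3.62%, 3.77% and 12.6% of all genes. The count within those of both replicates (4) was 7 with 5 kb and 8 in the 2000 highest, against 2.98% and 4.13% of all genes. Thresholded peaks (3) numbered 6 with 5 kb (1.64% of all genes) and 1, abhd-5.2, above the median signal of the thresholded list (0.521%). Leaving out a replicate gave 89 to 93 members with a region and 12 to 14 within the 1000 highest.

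The share of regions overlapping both replicates (39.7%) was 27.1% with the summit inside, 27.6% with at least 50% of the shorter region, 90.6% in the 3000 highest, a setting chosen after seeing the data, and 62.1% to 71.5% with a single replicate required. Over all nuclear regions the shares were 34.7%, 23.8%, 24.6%, 83.8% and 58.8% to 67.1%. The rank correlation between replicates fell from 0.184 to 0.0567 among members in the 10000 highest of either replicate, and from 0.235 to 0.00263 over all genes. GAGAGA was found in 7.48% of windows of 100 bp, 24.3% of 400 bp and 21.9% in the 3000 highest regions. Over all nuclear regions these shares were 4.86%, 17.9% and 15.1%. AGGTCA, added with earlier results known, was found in 6.54% of windows of 200 bp, against 3.96%. With 100 bp it was found in 1.4%, below the 1.95% of all nuclear regions, and with 400 bp in 10.3% against 8.24%. In the 3000 highest regions it was 6.25% against 3.76%. The upstream share (57.0%) was 41.4% with 1 kb and 56.2% with 5 kb, settings added after seeing the data. With 1 kb less upstream sequence was counted while the whole gene body still was. The share of all genes at these distances is not given, so the members cannot be set beside it. The cause of these changes was not tested. Of 144 ranks of the 27 named genes under the alternatives, 116 stayed on their side of rank 1000 and 28 crossed it. Cases in which a gene had no region under an alternative have no rank and are not among the 144. With 1 kb this was so for sbp-1, lbp-9, acox-1.6, acdh-4, fasn-1 and fat-7, and with nearest starts for kat-1, among others. The counts therefore leave out such losses. No paired analysis was possible because there is a single group.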

Other observations

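The genes acs-6 and kat-1 lie on II with starts 11784 bp apart, among the 23 pairs of members nearer to each other than 20 kb. Their best pooled regions, at ranks 154 and 483, are 11828 bp apart, and that of kat-1 is nearer to the start of kars-1. This pair was noticed after its values were seen. Their replicate ranks differ, with 261 and 288 at the acs-6 peak and 3041 and 15151 at the kat-1 region. Another pair of neighbouring members, ech-8 and lipl-7 on IV, shares 3 pooled regions, with ranks 15022, 15782 and 24062.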
